A study of Homo sapiens with 11 samples.

Results

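A set of 10 members of the Krüppel-like factor (KLF) family of transcription factors were followed in a human acute myeloid leukaemia line and its FLT3-ITD derivative, with and without FHD-286. The members were KLF2, KLF3, KLF4, KLF6, KLF7, KLF9, KLF10, KLF11, KLF13 and KLF16, and the rule names them by gene symbol. All 10 were found among the 58037 identifiers of the count table, and all 10 passed the filter on low counts that left 18908 genes. The other 8 KLF genes of the table were counted as a list of their own.

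FHD-286 blocks BRG1 and BRM, the motor subunits with which BAF complexes move nucleosomes. OCI-AML3, an established leukaemia cell line, was used beside its derivative OCI-AML3-FLT3-ITD, which by its name carries an internal tandem duplication in FLT3, a change that keeps this receptor kinase active. Paired-end RNA sequencing gave 3 libraries of OCI-AML3 treated with 100 nM FHD-286 for 16 h, 3 of untreated OCI-AML3, 2 of treated OCI-AML3-FLT3-ITD and 3 of untreated OCI-AML3-FLT3-ITD. The labels do not say what the controls received, how FLT3-ITD was introduced, whether the FLT3-ITD line is 1 clone or whether replicates were separate cultures, so p-values measure the spread between these libraries, which may be technical.

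KLF proteins share a run of C2H2 zinc fingers at the C-terminal end, with which they bind CACCC elements and GC-rich boxes, and differ in the N-terminal part that recruits cofactors. KLF3, with KLF8 and KLF12, binds the corepressor CtBP; KLF9, KLF10, KLF11, KLF13 and KLF16 bind SIN3A and its histone deacetylases; KLF2, KLF4, KLF6 and KLF7 are mainly activators, several of them through p300 and CBP. In blood cells, KLF4 is known for its part in monocyte differentiation in the mouse, and KLF2 for restraining activation of monocytes and keeping T cells quiescent.

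The 11 libraries held 58397190 to 79172389 counts. FLT3 itself measured 171 and 169 CPM (normalised read counts at a common library size) in the treated FLT3-ITD libraries, and 178 and 203 CPM in replicates 1 and 3 of the FLT3-ITD controls, against 39.2 to 43.3 CPM in the OCI-AML3 libraries of both treatments. The library labelled FLT3-ITD control replicate 2 had 53.4 CPM and stood apart from its group. Across genes, its log2 levels correlated at 0.979 to 0.984 with the 3 OCI-AML3 controls and at 0.957 and 0.960 with replicates 1 and 3 of its own labelled group, which correlated at 0.993 with each other. Its profile was thus nearer to OCI-AML3 controls than to the rest of its group, and whether its cells are those its label names was not tested. Every mean of FLT3-ITD controls includes it unless stated. Values without it are also given for many members and lists, and a value given once may still move without it. The common coefficient of variation of the fit was 0.193 with this library and 0.0652 without it. Summed over 8 myeloid markers, levels were 689 to 730 CPM in treated OCI-AML3, against 1181 to 1247 CPM in OCI-AML3 controls, and 515 to 522 CPM in treated FLT3-ITD cells, against 1107 to 1243 CPM in FLT3-ITD controls. Markers of other cell types were low: 6 erythroid and megakaryocyte genes summed to at most 0.866 CPM with HBB and GP9 at 0 counts, and 6 lymphoid genes summed to at most 3.92 CPM. The 7 stromal, endothelial and epithelial genes summed to 4.81 to 31.1 CPM, nearly all of it PECAM1, which myeloid cells also express. In bulk RNA, fewer cells of a kind and less RNA per cell cannot be told apart.

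On the scale of mean CPM per kb of exon, KLF13 and KLF16 were highest, at 34.8 and 33.9 CPM per kb in treated OCI-AML3 and at 25.5 and 44.0 CPM per kb in OCI-AML3 controls. KLF16 stood at 32.5 and KLF13 at 24.8 CPM per kb in treated FLT3-ITD cells, against 37.7 and 21.8 CPM per kb in FLT3-ITD controls. KLF16 thus led in 3 of the 4 groups, and KLF13 in treated OCI-AML3, where the lowest KLF13 library (34.34) and the highest KLF16 library (34.33) almost met. KLF2 ranked next in both OCI-AML3 groups, at 21.8 CPM per kb treated and 7.65 CPM per kb untreated. KLF10 ranked next in both FLT3-ITD groups, at 21.1 CPM per kb treated and 17.9 CPM per kb untreated. The lowest mean belonged to KLF11 in treated OCI-AML3 (2.93), KLF7 in OCI-AML3 controls (2.84), KLF3 in treated FLT3-ITD cells (3.27) and KLF7 in FLT3-ITD controls (3.37 CPM per kb). Between neighbours in this order, libraries overlapped for 1 of 9 pairs in treated OCI-AML3 (KLF3 with KLF11) and 2 of 9 in OCI-AML3 controls (KLF2 with KLF6, KLF4 with KLF11). They overlapped for 3 of 9 pairs in treated FLT3-ITD cells (KLF2 with KLF6, KLF9 with KLF11, KLF4 with KLF3) and 4 of 9 in FLT3-ITD controls (KLF10 with KLF2, KLF2 with KLF6, KLF6 with KLF9, KLF3 with KLF4).

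**Figure D1:**
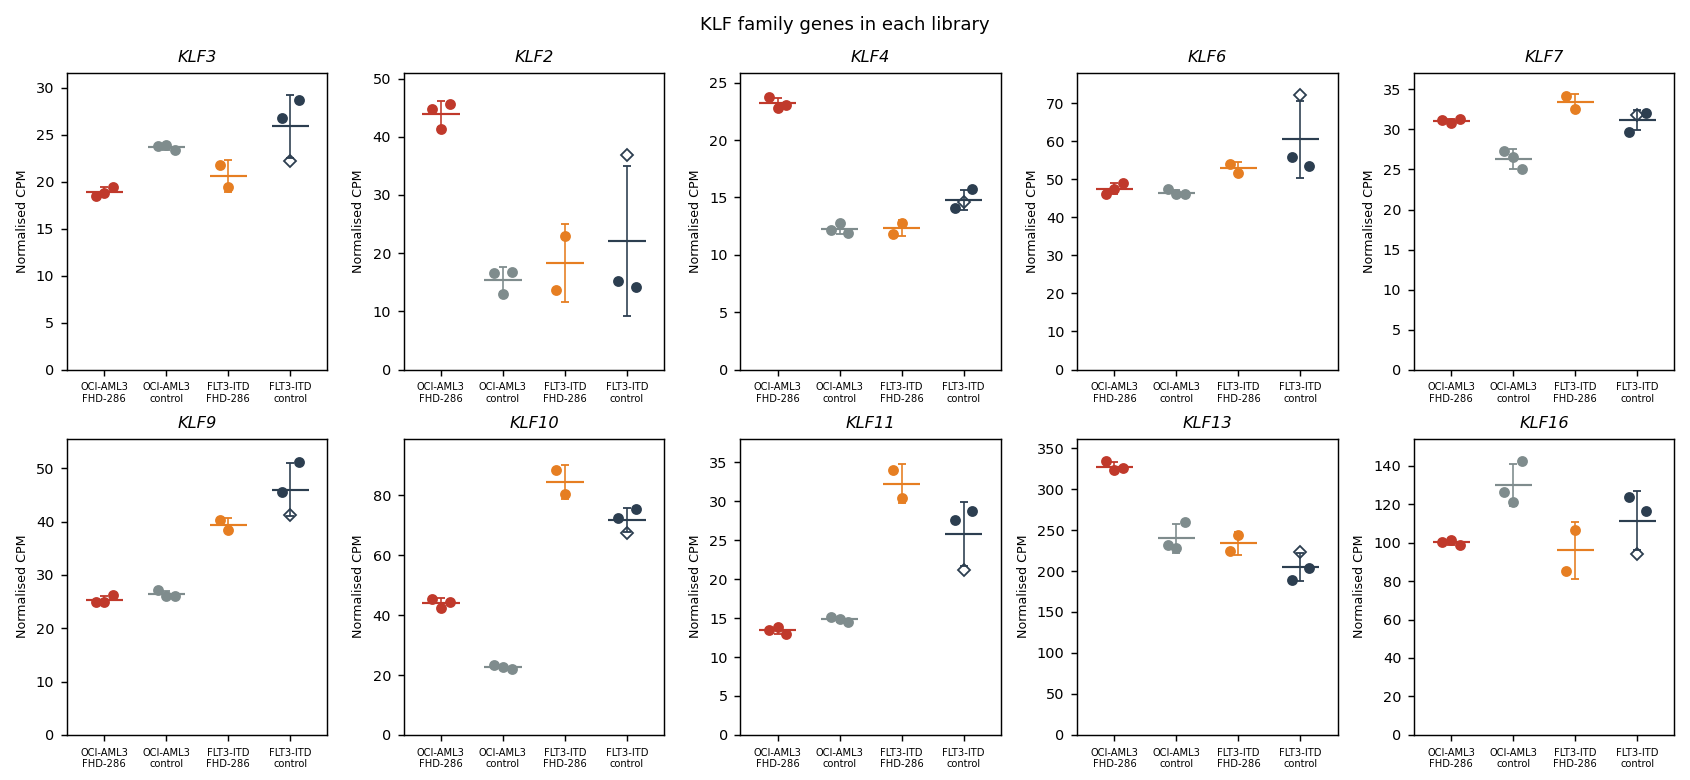
Normalised CPM (vertical axes, starting at 0) of the 10 KLF genes in each library, by group; points are libraries, the open diamond is the library labelled FLT3-ITD control replicate 2, lines are means and bars are SD. KLF2 and KLF4 are high in the 3 treated OCI-AML3 libraries, and KLF9, KLF10 and KLF11 are higher in the FLT3-ITD libraries, the open diamond included, than in OCI-AML3. For KLF2 the open diamond is also high, at 36.9 CPM.

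Promoters of 4 members are shown because KLF2 and KLF4 moved with FHD-286 in OCI-AML3, and KLF9 and KLF11 differed between the lines in both treatments. This choice was made after the values were seen; 8 of the 10 members had a promoter in the RefSeq table used, which holds none for KLF3, and KLF10 is not shown. Each sequence is the 250 bases before the RefSeq start (build GRCh38.p14), 5′ to 3′ on the gene's strand, at chr19:16324576-16324825 on the plus strand for KLF2, chr9:107489770-107490019 on the minus strand for KLF4, chr9:70414658-70414907 on the minus strand for KLF9, and chr2:10043579-10043828 on the plus strand for the first of 2 listed KLF11 starts. The RefSeq start of KLF9 lies outside the GENCODE 29 transcripts of the gene. The KLF4 and KLF11 windows lie inside the GENCODE 29 spans of these genes (chr9:107484852-107490482 and chr2:10042849-10054836), past their outermost starts. The last bases of the KLF2 window also lie past its GENCODE start (16324817). These stretches may thus be transcribed, and their promoter activity was not tested. Capitals mark 3 motifs on either strand: CACCC, the element that KLF fingers bind (GGGTG when it lies on the other strand), GGGCGG, the GC box (CCGCCC on the other strand), and CCAAT, the NF-Y box (ATTGG on the other strand). No match overlapped another in these 4 windows.
KLF2: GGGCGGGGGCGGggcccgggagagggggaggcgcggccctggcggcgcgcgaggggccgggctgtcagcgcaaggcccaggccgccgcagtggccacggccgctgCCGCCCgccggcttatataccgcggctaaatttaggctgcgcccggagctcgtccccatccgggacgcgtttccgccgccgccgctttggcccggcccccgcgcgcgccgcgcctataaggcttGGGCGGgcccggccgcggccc
KLF4: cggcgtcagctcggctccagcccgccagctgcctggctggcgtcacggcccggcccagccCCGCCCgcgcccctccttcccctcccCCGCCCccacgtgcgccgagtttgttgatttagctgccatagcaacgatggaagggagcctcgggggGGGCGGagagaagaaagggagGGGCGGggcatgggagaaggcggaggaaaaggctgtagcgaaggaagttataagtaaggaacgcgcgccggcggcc
KLF9: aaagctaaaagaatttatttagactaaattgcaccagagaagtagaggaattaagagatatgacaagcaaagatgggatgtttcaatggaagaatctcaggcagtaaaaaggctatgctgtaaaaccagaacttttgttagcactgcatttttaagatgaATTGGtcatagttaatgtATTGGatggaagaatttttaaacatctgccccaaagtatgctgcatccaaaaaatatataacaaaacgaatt
KLF11: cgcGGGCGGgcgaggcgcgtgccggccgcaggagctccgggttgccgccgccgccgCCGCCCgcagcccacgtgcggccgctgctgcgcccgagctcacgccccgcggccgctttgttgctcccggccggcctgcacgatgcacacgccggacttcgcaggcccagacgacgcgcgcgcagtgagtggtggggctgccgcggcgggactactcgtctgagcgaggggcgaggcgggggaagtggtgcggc
KLF2 and KLF4 each held 4 GGGCGG matches and no CACCC or CCAAT match, in windows of 80.0% and 69.2% GC. KLF9 held 2 CCAAT matches, no CACCC and no GGGCGG, in an AT-rich window of 32.4% GC. The KLF11 window shown held 2 GGGCGG matches at 78.8% GC. The window before the second listed KLF11 start, not shown, held 6 GGGCGG and 1 CACCC match at 74.4% GC. GGGCGG was not limited to the members shown. The windows of KLF16, KLF13 and KLF6 held 7, 3 and 2 matches, and those before the 4 listed KLF7 starts held 0 to 4. Of 35116 promoter windows of the same length, 54.7% held CACCC, 42.6% GGGCGG and 32.0% CCAAT, and their median GC was 58.0%. GGGCGG was added after the data were seen. A match is a string of letters, not a bound site.

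The first comparison asked what FHD-286 did to the family in OCI-AML3. KLF2, KLF4 and KLF10 were 2.85, 1.89 and 1.94 times as high in treated cells, KLF13 and KLF7 rose by less, and KLF3 and KLF16 fell. KLF6, KLF9 and KLF11 did not pass the test. In all, 5 of 10 members were higher and 2 lower with adjusted p below 0.05 (quasi-likelihood test of edgeR, Benjamini-Hochberg adjustment over 18908 genes), beside a background of 19.8% of all tested genes called higher and 21.5% lower. The median log2 fold change over the 10 members was 0.14, beside 0.014 over all genes. Every count below follows this rule, and the fold changes are log2 of treated over control with their standard error.

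KLF3 (ENSG00000109787.12, chr4:38664196-38701042 in GENCODE 29, GRCh38, plus strand) is the CtBP-binding repressor of the set. It stood at 18.5, 18.8 and 19.4 CPM in treated OCI-AML3, against 23.8, 23.9 and 23.4 CPM in OCI-AML3 controls. The groups did not overlap, and KLF3 fell by 0.33 ± 0.10 on the log2 scale (adjusted p 0.0224). This call was lost on leaving out each of the 6 OCI-AML3 libraries in turn (adjusted p up to 0.0748, with fold changes of -0.31 to -0.34), with no filter on low counts (-0.29, adjusted p 0.092) and with scaling by library totals (-0.17). KLF3 shares 4.22% of its exon length with the antisense gene KLF3-AS1, and whether counting used the strand is not given in the sources used here.

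KLF2 (ENSG00000127528.5, chr19:16324817-16327874, plus strand) had 44.9, 41.3 and 45.6 CPM in treated OCI-AML3, against 16.7, 12.9 and 16.7 CPM in controls. The lowest treated library lay above the highest control by more than the range of either group, and KLF2 rose by 1.51 ± 0.34 (adjusted p 0.0045). Its standard error was the largest of the 10 members here and fell to 0.13 without the library labelled FLT3-ITD control replicate 2, a library of neither group that enters the shared estimate of spread.

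KLF4 (ENSG00000136826.14, chr9:107484852-107490482, minus strand), known also as a pluripotency factor, had 23.8, 22.8 and 23.1 CPM in treated OCI-AML3, against 12.2, 12.8 and 11.9 CPM in controls. The treated libraries were tightly grouped and well apart from the controls, and KLF4 rose by 0.92 ± 0.08 (adjusted p 1.49e-05).

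KLF6 and KLF7 are activators of the same branch. KLF6 (ENSG00000067082.14, chr10:3775996-3785281, minus strand), a widely expressed factor, had 46.1, 47.4 and 49.1 CPM in treated OCI-AML3, against 47.3, 46.0 and 46.2 CPM in controls. The groups overlapped, with a fold change of 0.032 ± 0.10 (adjusted p 0.833). KLF7 (ENSG00000118263.14, chr2:207074137-207167267, minus strand) had 31.2, 30.8 and 31.3 CPM in treated cells, against 27.4, 26.5 and 25.0 CPM in controls. Its groups did not overlap and it rose by 0.24 ± 0.07 (adjusted p 0.0161), a call lost without OCI-AML3 control replicate 3 (adjusted p 0.061), without treated OCI-AML3 replicate 1 (adjusted p 0.0528) and with no filter on low counts (adjusted p 0.0565).

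Among the SIN3-binding members, KLF10 and KLF13 rose and KLF16 fell. KLF10 (ENSG00000155090.14, on chromosome 8), an early gene of TGF-beta signalling, had 45.4, 42.3 and 44.5 CPM in treated OCI-AML3, against 23.4, 22.7 and 22.0 CPM in controls. Every treated library was above every control, and KLF10 rose by 0.96 ± 0.07 (adjusted p 3.17e-06).

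KLF13 (ENSG00000169926.10, chr15:31326855-31435665, plus strand), an activator of CCL5 in T cells, had 334, 323 and 326 CPM in treated OCI-AML3, against 231, 228 and 259.9 CPM in controls. The groups were apart and KLF13 rose by 0.45 ± 0.08 (adjusted p 0.00114). KLF13 made up 48.1% to 48.9% of the 10 members' summed CPM in treated cells, against 42.0% to 44.2% in controls, a share of reads rather than of molecules because KLF13 has the longest exons of the set.

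KLF16 (ENSG00000129911.8, chr19:1852399-1863568, minus strand) had 100.2, 101.4 and 98.7 CPM in treated OCI-AML3, against 126.5, 121.3 and 142.4 CPM in controls. All treated libraries were lower, and KLF16 fell by 0.38 ± 0.11 (adjusted p 0.0212). The call was lost with library totals (-0.22), without OCI-AML3 control replicate 3 and without each of the 3 treated OCI-AML3 libraries (adjusted p up to 0.0864). KLF16 shares 16.3% of its exon length with the antisense gene AC012615.3, and without strand the reads of both cannot be told apart.

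KLF9 and KLF11 did not pass. KLF9 (ENSG00000119138.4, chr9:70384597-70414624, minus strand), a gene induced by glucocorticoids, had 24.9, 24.9 and 26.2 CPM in treated OCI-AML3, against 27.1, 26.1 and 26.1 CPM in controls, a fold change of -0.060 ± 0.08 (adjusted p 0.599). KLF11 (ENSG00000172059.10, chr2:10042849-10054836, plus strand), the other TGF-beta early gene, had 13.5, 13.9 and 12.9 CPM, against 15.2, 14.9 and 14.5 CPM. Its libraries did not overlap, yet the fold change of -0.15 ± 0.11 missed the threshold (adjusted p 0.336). KLF11 shares 9.07% of its exon length with the antisense gene AC104794.4.

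Changes in OCI-AML3 depend on the scaling. The normalised fit called 3742 genes higher and 4074 lower, and scaling by library totals called 5161 higher and 3025 lower, with the median of all genes at 0.17 in place of 0.014. Under library totals KLF2, KLF4, KLF7, KLF10 and KLF13 were still called higher, KLF3 and KLF16 were not called, and KLF9 and KLF11 turned to 0.095 and 0.0093.

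The second comparison asked the same in OCI-AML3-FLT3-ITD, where 2 of 10 members passed: KLF10 rose and KLF3 fell, beside 15.6% of all genes higher and 14.9% lower. The median over the 10 members was -0.20, beside -0.020 over all genes. Without the library labelled FLT3-ITD control replicate 2, 7 members passed, with KLF10, KLF11 and KLF13 higher and KLF3, KLF4, KLF9 and KLF16 lower, beside 49.0% of all genes called in either direction, and the members' median was 0.032. Library totals gave 4032 genes higher and 2254 lower in this line, in place of 2957 and 2810; they added KLF11 (0.43) and KLF13 (0.29) as higher and ended the call of KLF3 (-0.22).

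KLF3 had 21.8 and 19.4 CPM in treated FLT3-ITD cells, against 26.8, 22.2 and 28.6 CPM in FLT3-ITD controls, the second value being the library that stands apart. Both treated libraries were below all 3 controls, by less than the range of the controls, and KLF3 fell by 0.33 ± 0.11 (adjusted p 0.0467), or by 0.43 ± 0.08 without that library (adjusted p 0.00015). With all groups kept, the call was lost on leaving out any of the other 10 libraries (adjusted p up to 0.291).

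KLF2 had 13.6 and 23.0 CPM in treated FLT3-ITD cells, against 15.1, 36.9 and 14.2 CPM in controls. The groups overlapped: replicate 2 was the highest library of each group, and control replicate 2 came nearest to the treated OCI-AML3 libraries. The fold change was -0.27 ± 0.37 (adjusted p 0.632) with all libraries and 0.33 ± 0.16 (adjusted p 0.0954) without the library labelled control replicate 2, neither past the threshold.

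KLF4 had 11.9 and 12.8 CPM in treated FLT3-ITD cells, against 14.0, 14.6 and 15.7 CPM in controls. Both treated libraries were below all controls, with a fold change of -0.26 ± 0.09 that missed the threshold (adjusted p 0.0578). Without the library labelled control replicate 2 KLF4 was called, at -0.27 ± 0.09 (adjusted p 0.0146), and it also passed with the DESeq2 Wald test (-0.28).

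KLF6 and KLF7 did not pass with or without the library that stands apart. KLF6 had 54.1 and 51.7 CPM in treated FLT3-ITD cells, against 55.8, 72.1 and 53.4 CPM in controls, and the groups overlapped (-0.19 ± 0.11, or -0.047 without the library labelled control replicate 2). KLF7 had 34.1 and 32.6 CPM, against 29.7, 31.8 and 32.0 CPM, with the treated libraries just above the controls (0.10 ± 0.08).

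KLF10 had 88.4 and 80.5 CPM in treated FLT3-ITD cells, against 72.6, 67.4 and 75.6 CPM in controls. The groups did not overlap and KLF10 rose by 0.23 ± 0.08 (adjusted p 0.0399), or by 0.19 ± 0.07 without the library labelled control replicate 2 (adjusted p 0.0351). This call was lost in 9 of the 11 fits that left out 1 library (adjusted p up to 0.302) and was kept without the libraries labelled FLT3-ITD control replicate 2 or 3.

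KLF9, KLF11, KLF13 and KLF16 did not pass with all libraries. KLF9 had 40.3 and 38.4 CPM in treated FLT3-ITD cells, against 45.6, 41.1 and 51.1 CPM in controls (-0.22 ± 0.09, adjusted p 0.0961). KLF11 had 34.1 and 30.5 CPM, against 27.6, 21.2 and 28.7 CPM (0.32 ± 0.12, adjusted p 0.0757; 0.20 ± 0.08, adjusted p 0.0476, without the library labelled control replicate 2). Neither gene's groups overlapped, KLF9 being lower and KLF11 higher in the treated libraries. KLF13 had 224 and 244 CPM in treated cells, against 189, 223 and 204 CPM in controls, with the treated libraries above the controls by a narrow gap (0.19 ± 0.09, adjusted p 0.138). KLF16 had 85.5 and 106.5 CPM, against 123.7, 94.1 and 116.3 CPM, and the groups overlapped (-0.21 ± 0.13, adjusted p 0.232). Without the library labelled control replicate 2, KLF9 was at -0.30 (adjusted p 0.0027), KLF13 at 0.25 (adjusted p 0.01) and KLF16 at -0.32 (adjusted p 0.00559).

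**Figure D2:**
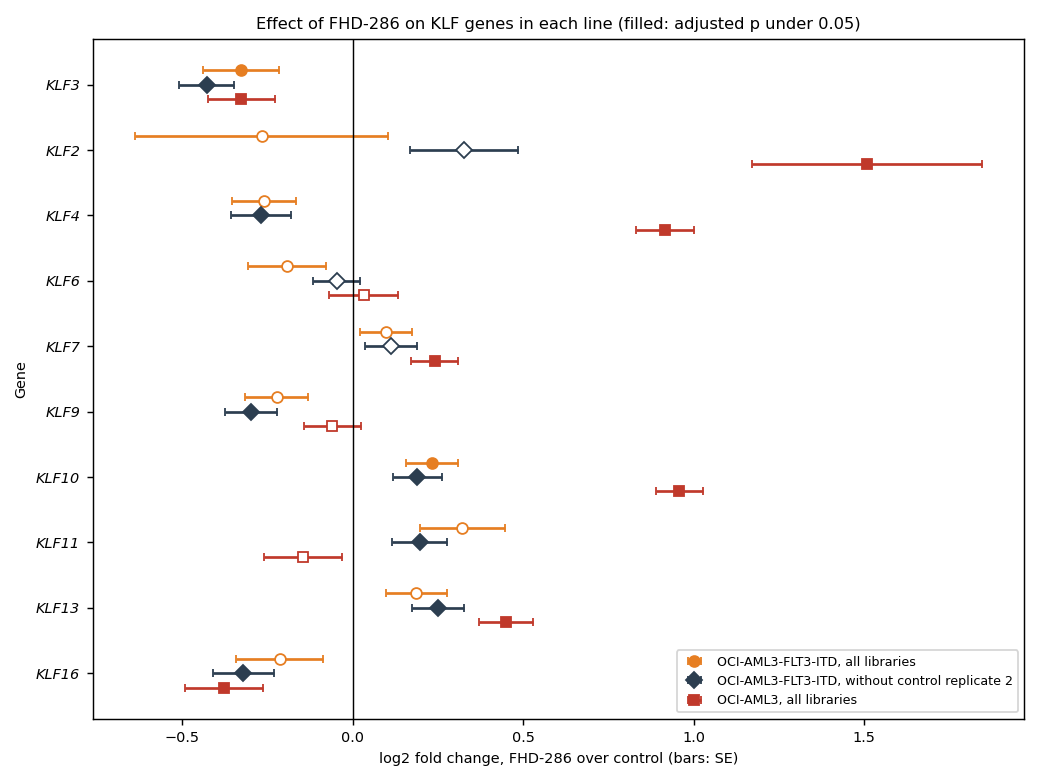
Log2 fold change of FHD-286 over control (horizontal axis, bars are SE) of each KLF gene in OCI-AML3-FLT3-ITD with all libraries, in the same line without the library labelled control replicate 2, and in OCI-AML3; filled symbols have an adjusted p under 0.05. KLF2, KLF4 and KLF10 lie at 1.51, 0.92 and 0.96 in OCI-AML3, well to the right of their values in OCI-AML3-FLT3-ITD, and KLF3 lies near -0.33 in both lines.

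The difference between these effects was tested as an interaction, the effect in OCI-AML3-FLT3-ITD minus that in OCI-AML3. KLF4 and KLF10 were called, both lower, beside 1.98% of all genes higher and 1.38% lower. KLF4 differed by -1.18 ± 0.13 (adjusted p 0.00172): treatment left it at 12.3 ± 0.68 CPM in FLT3-ITD cells (SD, n = 2) and at 23.2 ± 0.51 CPM in OCI-AML3 (SD, n = 3). KLF10 differed by -0.73 ± 0.10 (adjusted p 0.00619), a gene whose control level was already 71.9 ± 4.12 CPM in FLT3-ITD cells and 22.7 ± 0.68 CPM in OCI-AML3 (SD, n = 3 each). Both calls held in every setting tried. KLF2 had the largest estimate, -1.78 ± 0.51, and missed the threshold (adjusted p 0.0908). It passed without the library labelled FLT3-ITD control replicate 2 (-1.19 ± 0.20, adjusted p 0.000293), without FLT3-ITD control replicate 1 (-1.99), with the DESeq2 Wald test (-1.80) and with no filter (-1.83). Without the library labelled control replicate 2, KLF2, KLF4 and KLF10 were lower and KLF11 was higher (0.34 ± 0.11, adjusted p 0.0297), beside 17.0% of all genes in either direction. KLF3 differed by -0.0019 ± 0.15, with a sign that changed between settings. The comparisons between lines that follow use the same libraries as the effects of FHD-286.

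The lines were then compared without treatment. In untreated FLT3-ITD cells 6 members were higher and 0 lower (edgeR; 0 lower also with the DESeq2 Wald test), beside 14.5% of all genes higher and 13.5% lower. At an unadjusted p under 0.05, 1 member was lower, KLF13. The median over the 10 members was 0.32, beside 0.013 over all genes. KLF10 was 3.17 times as high (1.66 ± 0.07, adjusted p 3.77e-06), at the 72.6, 67.4 and 75.6 CPM given above in FLT3-ITD controls, against 23.4, 22.7 and 22.0 CPM in OCI-AML3 controls. KLF9 (0.80 ± 0.08, adjusted p 0.000308) and KLF11 (0.80 ± 0.11, adjusted p 0.00127) were each 1.74 times as high. These 3 genes were called in every setting tried, and their level in the library labelled FLT3-ITD control replicate 2 (41.1, 67.4 and 21.2 CPM for KLF9, KLF10 and KLF11) lay above every OCI-AML3 library of either treatment, although its FLT3 level did not reach that of its group.

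KLF6 (0.38 ± 0.10), KLF4 (0.27 ± 0.08) and KLF7 (0.25 ± 0.07) were also higher in untreated FLT3-ITD cells, with adjusted p of 0.0202, 0.0378 and 0.0232. These calls were less firm: on leaving out 1 library, KLF4 was lost in 8 of 11 fits and KLF6 and KLF7 in 3 each, with adjusted p up to 0.115, 0.0665 and 0.0848, and a replicate block also ended the call of KLF4 (adjusted p 0.0682). Each of the 3 OCI-AML3 controls was among the libraries whose loss ended the calls of KLF4 and KLF6. For KLF7 they were OCI-AML3 control replicates 2 and 3 and FLT3-ITD control replicate 3. KLF2 was at 0.52 ± 0.33 (adjusted p 0.27) and turned to -0.072 without the library labelled FLT3-ITD control replicate 2, whose 36.9 CPM lay far above the 12.9 to 16.7 CPM of the other untreated libraries. KLF13 and KLF16 were at -0.22 each (adjusted p 0.0599 and 0.164), and KLF3 at 0.13 (adjusted p 0.362). Without that library 8 members passed, beside 49.4% of all genes: KLF3 (0.23) was added as higher and KLF13 (-0.29) as lower, and KLF10, KLF11, KLF9 and KLF6 stood at 1.71, 0.92, 0.87 and 0.23. Library totals gave 3457 genes higher and 1648 lower here, in place of 2738 and 2551.

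With FHD-286 in both lines, 3 members were higher and 3 lower in the FLT3-ITD line, beside 14.3% of all genes higher and 11.7% lower, with a median of 0.11 over the members and 0.0018 over all genes. KLF11 was 2.40 times as high (1.26 ± 0.12, adjusted p 0.000127), at 34.1 and 30.5 CPM in treated FLT3-ITD cells, against 13.5, 13.9 and 12.9 CPM in treated OCI-AML3. KLF10 (0.94 ± 0.08, adjusted p 5.43e-05) and KLF9 (0.64 ± 0.09, adjusted p 0.00105) were also higher. KLF4 was lower by -0.91 ± 0.10 (adjusted p 0.000173) and KLF13 by -0.49 ± 0.09 (adjusted p 0.00378). These 5 calls held in every setting tried. KLF2 was lower by -1.26 ± 0.38 (adjusted p 0.0344), at 13.6 and 23.0 CPM in treated FLT3-ITD cells, against 44.9, 41.3 and 45.6 CPM in treated OCI-AML3. The KLF2 groups were far apart, but the call was lost without either treated FLT3-ITD library (-0.935 and -1.69), without each treated OCI-AML3 library and without OCI-AML3 control replicate 1 or 3 (adjusted p up to 0.249). KLF3, KLF6, KLF7 and KLF16 did not pass, at 0.13, 0.15, 0.10 and -0.061. The treated and the untreated line comparison use different libraries, so KLF9, KLF10 and KLF11 were higher in the FLT3-ITD line in 2 separate sets of libraries. KLF4 was lower in the line treated, a call that held in every setting. It was higher untreated, a call lost in 8 of the 11 fits that left out 1 library.

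**Figure D3:**
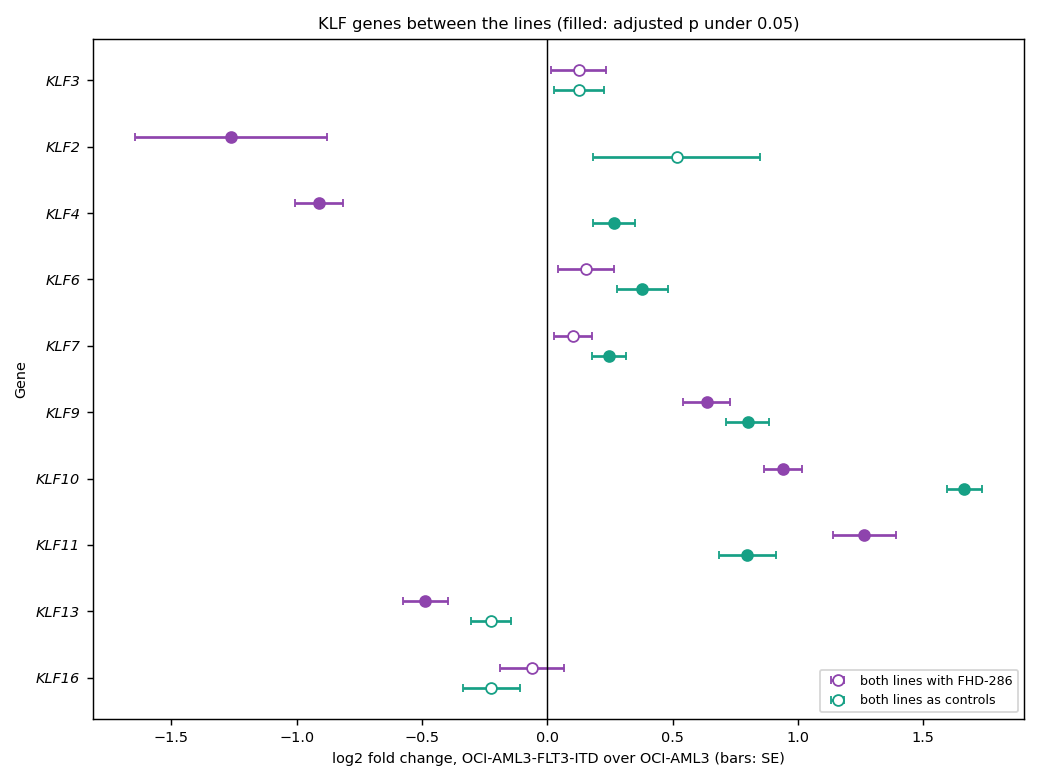
Log2 fold change of OCI-AML3-FLT3-ITD over OCI-AML3 (horizontal axis, bars are SE) of each KLF gene with FHD-286 in both lines and in the controls; filled symbols have an adjusted p under 0.05. KLF9, KLF10 and KLF11 lie to the right of 0 in both comparisons, and KLF4 lies at -0.91 with FHD-286 and 0.27 without.

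The members' summed level was 667 to 682 CPM in treated OCI-AML3, against 535 to 588 CPM in OCI-AML3 controls, and 608 and 639 CPM in treated FLT3-ITD cells, against 600.2 to 624 CPM in FLT3-ITD controls. The sum was thus higher in every treated OCI-AML3 library than in any control, and overlapped in FLT3-ITD cells. No test was made of it.

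Likeness was measured for members whose highest group mean was at least 2 times the lowest, as the root mean square difference of centred log2 CPM over the 11 libraries, among 10513 genes; it is a description without a test. KLF2 was most like the antisense RNA SCAMP1-AS1 (0.20) and ACBD4 (0.22), against a spread of KLF2 itself of 0.71. SCAMP1-AS1 had 7.61, 7.47 and 7.66 CPM in treated OCI-AML3, against 2.50, 2.89 and 3.20 CPM in controls, and 3.49 and 4.17 CPM in treated FLT3-ITD cells, against 2.59, 6.44 and 2.51 CPM in controls. ACBD4 had 10.9, 11.6 and 10.8 CPM in treated OCI-AML3, against 4.79, 5.09 and 4.96 CPM, and 8.95 CPM in the library labelled FLT3-ITD control replicate 2, against 4.14 and 4.43 CPM in replicates 1 and 3. Both were high in the same libraries as KLF2, FLT3-ITD control replicate 2 included, which follows from their choice by likeness over these libraries. KLF10 was most like ZC3H6 (0.15) and AK9 (0.20), and KLF11 most like TOP2A (0.09), the DNA topoisomerase of dividing cells, and ITGB3BP (0.09), a centromere protein. TOP2A had 749 and 718 CPM in treated FLT3-ITD cells, against 519, 454 and 575 CPM in FLT3-ITD controls, and 288, 299 and 303 CPM in treated OCI-AML3, against 314, 320 and 309.6 CPM in OCI-AML3 controls. TOP2A was picked by this likeness, and as with KLF11 every FLT3-ITD library was above every OCI-AML3 library.

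The gene lists that follow are short, and their counts stand beside the same shares of all genes as above: 19.8% higher and 21.5% lower in OCI-AML3, 15.6% higher and 14.9% lower in OCI-AML3-FLT3-ITD, and 49.0% in either direction in that line without the library labelled FLT3-ITD control replicate 2. No count is read as particular to its list.

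Of the 8 other KLF genes, 4 passed the filter and all 4 were called in each line, 3 higher and 1 lower, with a median of 1.97 in OCI-AML3 and 1.08 in OCI-AML3-FLT3-ITD. Without the library labelled FLT3-ITD control replicate 2 the median in OCI-AML3-FLT3-ITD was 0.76. KLF5, a factor of proliferating epithelium, rose by 2.76 ± 0.31 in OCI-AML3 (adjusted p 5.94e-05), at 3.66, 4.15 and 4.46 CPM in treated cells, against 0.475, 0.625 and 0.700 CPM in controls. The treated libraries lay far above the controls. In FLT3-ITD cells KLF5 had 2.72 and 3.32 CPM treated, against 2.01, 0.837 and 1.90 CPM untreated, a rise of 0.93 (adjusted p 0.0465), or of 0.63 without the library labelled control replicate 2. KLF12, a CtBP-binding repressor like KLF3, rose by 1.18 ± 0.30 in OCI-AML3 (adjusted p 0.0095) and 1.23 ± 0.32 in FLT3-ITD cells (adjusted p 0.0144; 0.90 without the library labelled control replicate 2). It had 4.99, 4.45 and 5.18 CPM in treated OCI-AML3, against 2.25, 2.30 and 1.89 CPM in controls. In FLT3-ITD cells it had 20.7 and 19.4 CPM treated, against 9.28, 4.23 and 12.2 CPM untreated, so KLF12 was highest in the treated FLT3-ITD libraries.

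KLF15 fell in both lines: it fell by 1.21 ± 0.33 in OCI-AML3 (adjusted p 0.0141) and fell by 3.58 ± 0.46 in FLT3-ITD cells (adjusted p 0.000248), where it was at -2.95 without the library labelled control replicate 2. It had 3.03, 3.32 and 3.15 CPM in treated OCI-AML3, against 7.73, 6.70 and 7.58 CPM in controls. It had 0.261 and 0.391 CPM in treated FLT3-ITD cells, against 2.72, 6.70 and 2.39 CPM in controls, where control replicate 2 was near the OCI-AML3 controls. The lines differed in this effect by -2.37 ± 0.54 (adjusted p 0.0434), or by -1.74 without the library labelled FLT3-ITD control replicate 2 (adjusted p 2.52e-05). KLF14 was near the floor, with 35 counts over the 3 treated OCI-AML3 libraries, against 3 counts over their controls, and 34 counts over the 2 treated FLT3-ITD libraries, against 8 counts over their controls. The erythroid factor KLF1 had at most 7 counts in a library and KLF8 at most 3, while KLF17 and KLF18 had 0 in all 11, which allows up to 0.0366 to 0.0548 CPM (3 counts). Intervals of this kind cover counting error only.

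The SP genes, which bind the same GC boxes as KLF factors, were mostly higher where called. Of 9, 7 were tested, with 4 called higher in OCI-AML3 (median 0.64) and 3 in OCI-AML3-FLT3-ITD (median 0.67). Without the library labelled FLT3-ITD control replicate 2, 5 were higher and 1, SP8, lower in OCI-AML3, and 4 were higher in OCI-AML3-FLT3-ITD. That fit called 5412 genes higher and 5561 lower of 18662 in OCI-AML3. SP8 was near the floor, with 25 counts over the treated OCI-AML3 libraries, against 45 counts over their controls. SP3 had 149.99, 152 and 156 CPM in treated OCI-AML3, against 99.1, 100.2 and 94.3 CPM in controls, and 181 and 165 CPM in treated FLT3-ITD cells, against 102, 113 and 112 CPM in controls. All treated libraries were above all controls, with fold changes of 0.64 ± 0.06 (adjusted p 2.79e-05) and 0.67 ± 0.07 (adjusted p 8.03e-05). SP4 rose by 0.68 and 0.74 and SP5 by 1.25 and 1.29. SP4 was also higher in the FLT3-ITD line, by 0.62 treated and 0.56 untreated.

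**Figure D4:**
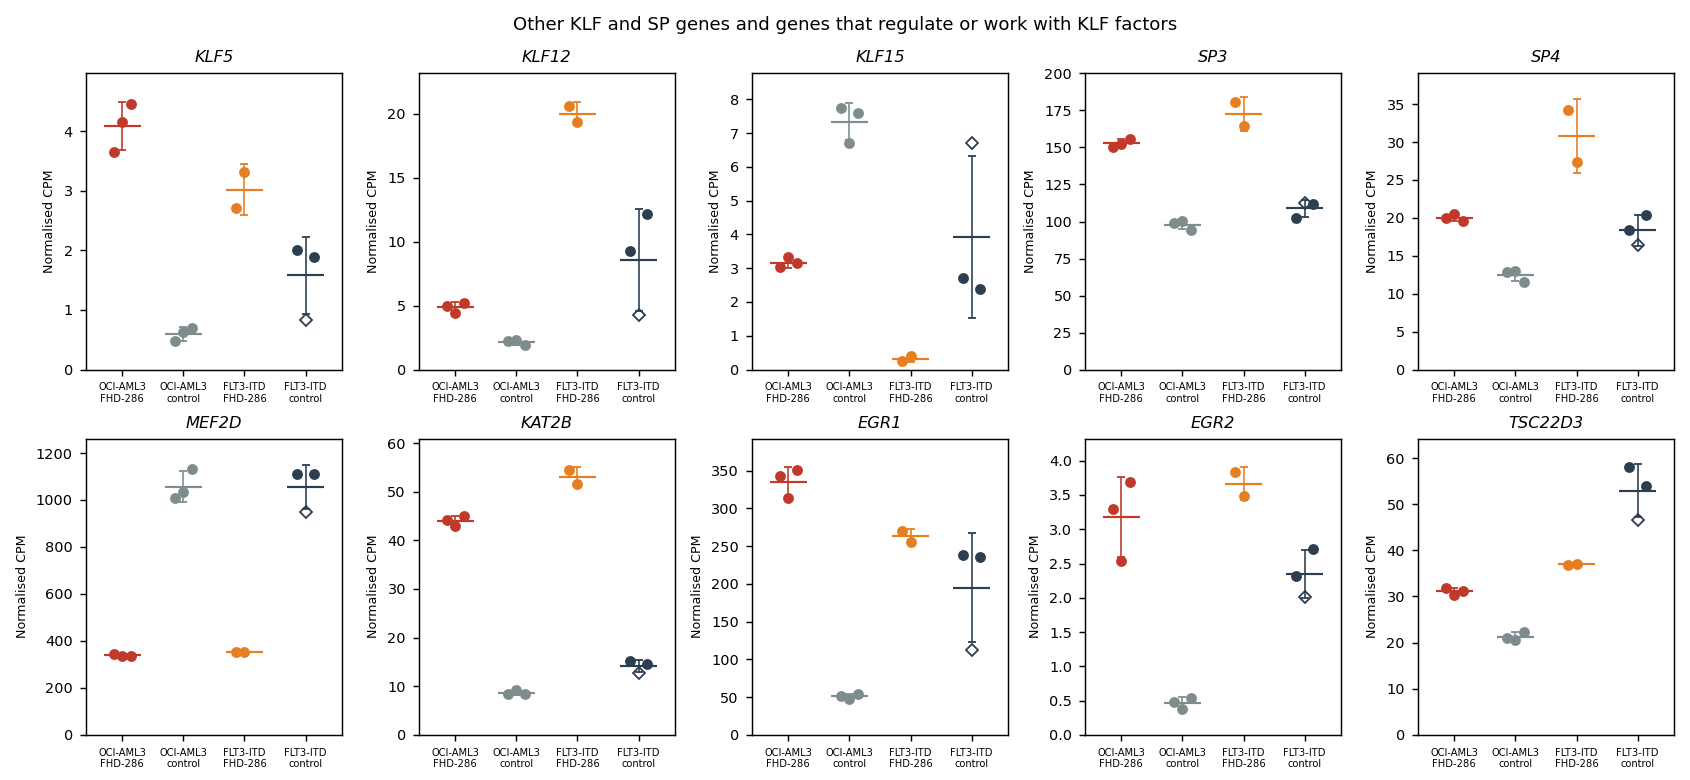
Normalised CPM (vertical axes, starting at 0) of KLF5, KLF12, KLF15, SP3, SP4 and of MEF2D, KAT2B, EGR1, EGR2 and TSC22D3 in each library; points are libraries, the open diamond is the library labelled FLT3-ITD control replicate 2, lines are means and bars are SD. KAT2B is higher and MEF2D lower in all treated libraries than in the controls of either line, and EGR1 in OCI-AML3 controls lies at 47.4 to 54.3 CPM, below every other group.

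Of 12 corepressors and coactivators that KLF factors bind, 5 rose and 2 fell in OCI-AML3 (median 0.18), and 5 rose and 1 fell in FLT3-ITD cells (median 0.26; 8 rose and 2 fell without the library labelled control replicate 2). KAT2B, the acetyltransferase PCAF, had 44.2, 42.9 and 44.9 CPM in treated OCI-AML3, against 8.39, 9.23 and 8.41 CPM in controls. In FLT3-ITD cells it had 54.5 and 51.5 CPM treated, against 15.1, 12.7 and 14.5 CPM untreated. It rose by 2.34 ± 0.09 (adjusted p 5.44e-08) and 1.91 ± 0.09 (adjusted p 5.99e-07), with no overlap in either line. SIN3B rose by 0.41 and 0.40. KAT2A was at -0.47 in OCI-AML3 and -0.32 in FLT3-ITD cells, past the threshold in both, and SIN3A rose by 0.37 in FLT3-ITD cells. Between the lines, SIN3A was 0.46 and HDAC2 0.61 higher with treatment, and KAT2B was 0.70 higher without. CTBP1 was lower in the FLT3-ITD line, at -0.22 treated and -0.21 untreated, and HDAC1 was at -0.25 untreated.

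Of 15 genes of the pathways that induce KLF genes, 8 rose and 1 fell in OCI-AML3 (median 0.27), and 5 rose and 1 fell in FLT3-ITD cells (median 0.28; 9 rose and 1 fell without the library labelled control replicate 2). The gene that fell in both was MEF2D, of the MEF2 family through which MEK5 and ERK5 signals induce KLF2 in endothelium. MEF2D had 344, 336 and 337 CPM in treated OCI-AML3, against 1006, 1033 and 1132 CPM in controls. In FLT3-ITD cells it had 354 and 353 CPM treated, against 1109, 948 and 1111 CPM untreated. The groups were far apart in both lines, at -1.64 ± 0.08 (adjusted p 3.34e-07) and -1.58 ± 0.09 (adjusted p 2.1e-06). SMAD3, a transducer of TGF-beta signals, rose by 0.99 and 0.62, and NR3C1, the glucocorticoid receptor, rose by 0.85 in OCI-AML3 and 0.28 in FLT3-ITD cells. ELK1 rose by 0.52 and 0.64. NR3C1 was the 1 gene of this list called in the difference between effects, at -0.57 ± 0.11 (adjusted p 0.0254). Over all genes 1.98% were higher and 1.38% lower in this difference. Without the library labelled FLT3-ITD control replicate 2, 1 gene was higher and 5 lower, beside 17.0% of all genes in either direction.

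Of 9 ubiquitin ligases reported to act on KLF proteins, 4 were called in each line, all higher (median 0.18 in OCI-AML3 and 0.20 in FLT3-ITD cells). They were BTRC (0.34 in OCI-AML3 and 0.52 in FLT3-ITD cells), ITCH (0.20 and 0.34), SMURF1 (0.26 and 0.47) and FBXO32 (1.70 and 0.61). Without the library labelled FLT3-ITD control replicate 2, 5 ligases were higher in FLT3-ITD cells. FBXO32, the F-box protein atrogin-1, had 10.98, 9.77 and 10.98 CPM in treated OCI-AML3, against 3.49, 3.00 and 3.25 CPM in controls, and 10.4 and 11.2 CPM in treated FLT3-ITD cells, against 8.16, 5.25 and 7.83 CPM in controls. Its treated libraries were at a like level in both lines and its controls were not, and the lines' effects differed by -1.09 ± 0.24 (adjusted p 0.0389).

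Of 12 genes reported as KLF targets in other cells, 10 were tested and the calls went both ways. In OCI-AML3, 3 rose and 4 fell (median -0.12), and in FLT3-ITD cells 2 rose and 4 fell (median -0.63; 3 and 5 without the library labelled control replicate 2). THBD, thrombomodulin, which KLF2 and KLF4 induce in endothelium, had 139, 147 and 140.1 CPM in treated OCI-AML3, against 113, 113 and 119 CPM in controls. In FLT3-ITD cells it had 48.0 and 47.6 CPM treated, against 116, 143 and 123 CPM untreated. THBD fell by 1.41 ± 0.09 in FLT3-ITD cells (adjusted p 3.24e-06), and the lines' effects differed by -1.72 ± 0.12 (adjusted p 0.000589). CCL5, a chemokine that KLF13 activates in T cells, fell by 1.00 in OCI-AML3 and fell by 1.78 in FLT3-ITD cells (-1.61 without the library labelled control replicate 2), and ENG, the TGF-beta coreceptor endoglin, was at -1.15 and -1.37. CCL5 had 77.1, 82.0 and 77.3 CPM in treated OCI-AML3, against 158, 147 and 168 CPM in controls. Whether KLF13 acts on CCL5 in these cells was not tested. ITGB7 was near the floor in treated OCI-AML3, with 7 counts over 3 libraries, against 89 counts over the controls.

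Immediate early genes, which growth factor signals induce together with KLF2, KLF4, KLF6 and KLF10, were split: 7 of 14 rose and 5 fell in OCI-AML3 (median 0.43), and 4 rose and 3 fell in FLT3-ITD cells (median 0.018; 5 and 6 without the library labelled control replicate 2). EGR1 had 342, 313 and 350.4 CPM in treated OCI-AML3, against 51.7, 47.4 and 54.3 CPM in controls, and 270.2 and 255 CPM in treated FLT3-ITD cells, against 238, 112 and 235 CPM in controls. EGR1 and EGR2 rose by 2.71 and 2.78 in OCI-AML3. EGR1 did not pass in FLT3-ITD cells, at 0.43, or 0.15 without the library labelled control replicate 2. For EGR1 and EGR2 the lines' effects differed by -2.28 and -2.14 (adjusted p 0.00787 and 0.00609), the direction seen for KLF4 and KLF10. JUN fell in both lines, at -1.29 and -0.89. In untreated cells 9 of the 14 were higher and 1 lower in the FLT3-ITD line (median 0.87), beside 14.5% and 13.5% of all genes, and in treated cells 6 were higher, beside 14.3%. Without the library labelled FLT3-ITD control replicate 2 these counts were 10 higher and 3 lower untreated, and 6 higher and 3 lower treated. In that fit 49.4% of all genes were called in either direction untreated, and 8756 of 18662 genes treated.

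Of 6 glucocorticoid-responsive genes, listed because KLF9 is one, 2 rose and 1 fell in OCI-AML3 (median 0.19), and 1 fell in FLT3-ITD cells (median -0.20; 2 fell without the library labelled control replicate 2). TSC22D3, the leucine zipper protein GILZ, had 31.8, 30.4 and 31.3 CPM in treated OCI-AML3, against 21.0, 20.5 and 22.3 CPM in controls, and 36.9 and 37.0 CPM in treated FLT3-ITD cells, against 58.1, 46.7 and 54.0 CPM in controls. It rose by 0.55 in OCI-AML3 and fell by 0.52 in FLT3-ITD cells, a difference of -1.07 ± 0.13 (adjusted p 0.00268). FKBP5 fell by 0.63 in OCI-AML3 and was at -0.046 in FLT3-ITD cells. In untreated cells TSC22D3 was 1.31 higher and FKBP5 was at -0.69 in the FLT3-ITD line (log2), while KLF9 was 0.80 higher.

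Among the marker lists the myeloid genes moved with treatment beside the KLF genes: 1 of 8 rose and 6 fell in OCI-AML3, where the median fell by 1.00, and 7 fell in FLT3-ITD cells (median -1.73). LYZ was at -3.84 and -3.05 and SPI1 at -2.84 and -3.62 in OCI-AML3 and FLT3-ITD cells, and the lines differed in 6 of the 8 effects, 5 lower and 1 higher. Of the lists of other cell types, 1 erythroid and megakaryocyte gene was tested and did not pass, NKG7 of the lymphoid list was at -2.11 and -1.68, and PECAM1 fell by 1.80 in FLT3-ITD cells (-1.13 without the library labelled control replicate 2). Their part in the KLF results was not tested.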

How the data were processed

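The data are paired-end RNA sequencing of 11 libraries, for which the authors deposited a table of raw counts per gene for the whole series. STAR and the build hg38 are named in the submitters' processing notes; the counter, its annotation and its strand setting are not given in the sources used here. Of 58037 identifiers, 57433 matched GENCODE 29, from which symbols, coordinates and exon lengths were taken. Counts were scaled with TMM factors in edgeR 4.0.16 (R 4.3.3), filtered with filterByExpr (minimum count 10, total 15), and fitted with 1 mean per group over the 4 groups (7 residual degrees of freedom). Quasi-likelihood tests were two-sided, Benjamini-Hochberg adjusted over 18908 genes, at a threshold of 0.05. The fit was also run on simulated counts with a common spread for all genes and no library standing apart, unlike these data. CPM are normalised by the same factors. Alternatives used DESeq2 1.42.0, other scalings, no filter, fewer groups, a replicate block, and leaving out each library.

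The members and gene lists were chosen with earlier results of these data known. All 10 members are named in each comparison, and of each list up to 3 called genes with the smallest p, besides genes named for completeness (KLF1, KLF8, KLF14, KLF17, KLF18) and genes whose values in one line were set beside those in the other. The analyses without the library labelled FLT3-ITD control replicate 2 were added for the gene lists after seeing the data. No 2 libraries of a group agreed within sampling noise (chi-square of at least 4.65 per degree of freedom).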

Additional observations from a re-analysis of the deposited data

Results flagged for a closer look

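In the interaction test (edgeR, adjusted p under 0.05), the effects of FHD-286 differed between the lines for 11 members and listed genes, marker lists apart. Over all genes 1.98% were higher and 1.38% lower. The genes tested were 10 members, 4 other KLF genes, 7 SP genes, 12 corepressors and coactivators, and 15 upstream genes. They also were 9 ubiquitin ligases, 10 reported targets, 14 immediate early and 6 glucocorticoid-responsive genes, with DUSP1 in both of the last lists. As the lists were chosen with earlier results known, their count is not read against the share of all genes. Of the 8 myeloid markers 6 also differed, LYZ at 0.79, SPI1 at -0.78, CSF3R at -0.60, CEBPA at -1.25, MPO at -1.64 and ITGAM at -1.66. Among the members these were KLF4, at -1.18, and KLF10, at -0.73 on the log2 scale. KLF4 was at -0.26 in the FLT3-ITD line, where it missed the threshold, and rose by 0.92 in OCI-AML3. KLF10 rose by 0.23 in the FLT3-ITD line and by 0.96 in OCI-AML3. Of the listed genes, KLF15 differed by -2.37, THBD by -1.72, EGR1 by -2.28, EGR2 by -2.14, DUSP1 by -1.15, FBXO32 by -1.09, TSC22D3 by -1.07 and NR3C1 by -0.57, and FKBP5 by 0.59. All 11 kept their direction and their call without the library labelled FLT3-ITD control replicate 2, with KLF15 at -1.74 and THBD at -1.62. That fit called 3177 genes in this difference, in place of 635 with all libraries, so a call kept there is a weak check. The listed genes, unlike the members, were not followed in fits leaving out another library.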

How the results depend on the processing

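Of 840 values of the 10 members under an alternative, 741 kept direction and side of the threshold, 69 lost a call, 19 gained one and 11 turned sign. The calls of KLF2, KLF4, KLF10 and KLF13 in OCI-AML3, KLF4 and KLF10 in the difference between effects, KLF9, KLF10 and KLF11 between untreated lines, and KLF4, KLF9, KLF10, KLF11 and KLF13 between treated lines held throughout. Library totals turned KLF9 to 0.095 and KLF11 to 0.0093 in OCI-AML3. Leaving out 1 library gave 4 to 7 members called in OCI-AML3, 0 to 7 in OCI-AML3-FLT3-ITD, 2 to 4 in the difference and 3 to 8 between untreated lines; over all genes it gave 6132 to 10973 in OCI-AML3, 2908 to 9140 in OCI-AML3-FLT3-ITD, 105 to 3177 in the difference, 2914 to 9223 between untreated and 1909 to 8756 between treated lines. The same fits ranged from -0.69 to 0.33 for KLF2 in OCI-AML3-FLT3-ITD, -0.10 to 0.084 for KLF3 in the difference, -0.072 to 0.76 for KLF2 between untreated lines and -0.23 to 0.085 for KLF16 between treated lines. The highest counts over all genes were without the library labelled FLT3-ITD control replicate 2, where the estimated spread is smaller. With no filter 0 members were called in OCI-AML3-FLT3-ITD, beside 5431 of 33722 genes. Fitting only the groups compared called 11333 genes in OCI-AML3, 0 members in OCI-AML3-FLT3-ITD (1618 genes), 3 members between untreated lines (1736 genes) and 9581 genes between treated lines. The DESeq2 Wald test called 1467 genes in the difference. The cause was not tested.

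No pairing of the libraries by replicate number was seen. Same-numbered libraries correlated at -0.03 to 0.12 over 15 pairs in their deviations from group means, and differently numbered ones at -0.20 to 0.19 over 30. In groups this small the deviations are tied to each other, so whether the numbers mark a shared batch or day could not be told. A replicate block left 1 member called in OCI-AML3-FLT3-ITD, beside 5170 of 18908 genes. It left 349 genes called in the difference, where KLF3 turned to 0.031, and ended the call of KLF4 between untreated lines (0.27). Depth did not limit the 10 members, each with at least 663 counts in every library. KLF14, SP8 and ITGB7 rest on few counts.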
